A study of Mus musculus with 4 samples.

Results

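The miRNAs described here are those of the miR-23, miR-24 and miR-27 clusters, measured in Sertoli cells of adult mice after androgen suppression and after testosterone replacement. They were chosen by name and not by signal, although earlier results of these data were known: mmu-miR-23a, mmu-miR-23b, mmu-miR-24, mmu-miR-24-1*, mmu-miR-24-2*, mmu-miR-27a and mmu-miR-27b. The arrays carried all 7 of them among 567 mouse miRNAs. Of the 7, the scanner software called 6 detected on at least 1 array and 5 on all arrays. These 5 were mmu-miR-23a, mmu-miR-23b, mmu-miR-24, mmu-miR-27a and mmu-miR-27b, and the prefix mmu (mouse) is left out from here on.

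RNA of purified Sertoli cells, the somatic cells that support the germ cells of the seminiferous tubule, was hybridized to 4 single-colour miRNA arrays. The labels call the samples control, flutamide (replicates 1 and 2) and testosterone, and the study's methods describe these as 3 groups of B6129 males aged 5 to 7 weeks. Sham mice, with 1 array, carried a 0.2 cm Silastic tube under the skin and received saline into the peritoneum. Flut+Acy mice, with 2 arrays, received the antiandrogen flutamide through the tube and 20 mg/kg of acyline, an antagonist of the GnRH receptor. Flut+Acy+T mice, with 1 array, received flutamide and acyline in the same way together with testosterone. Each RNA was pooled from 5 to 7 mice by the labels and from 6 by a legend, and no label states if the replicates of Flut+Acy came from separate pools. The spread between them may therefore be technical. A miRNA array has no probe for the coding genes that mark Sertoli cells, so the cell type could not be checked from these data.

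The arrays differed in brightness and in noise. The signals above 0 summed to 57940 units (Sham), 139602 and 161460 units (Flut+Acy) and 201919 units (Flut+Acy+T). The software called 193, 275, 270 and 102 mouse miRNAs detected in the same order. The lowest detected signal was between 0.766 and 2.67 units on the first 3 arrays and 238 units on the Flut+Acy+T array. On that array the negative-control spots had a standard deviation of 1326 units, against 2.72 to 7.45 units on the others.

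In the mouse these miRNAs come from a pair of paralogous clusters, each of which yields a miR-23, a miR-27 and a miR-24. A miRNA guides the silencing complex to messenger RNAs mainly through its seed, bases 2 to 8 counted from the 5′ end, so paralogs with the same seed have largely overlapping predicted targets. The mature miR-24 is the same from both clusters, and only the opposite arms of its hairpins, miR-24-1* and miR-24-2*, tell the loci apart. The families are known for roles in blood vessels, muscle, fat cells and the differentiation of blood cells. The mature sequences of the members, which show the shared seeds and the bases that separate the paralogs, are given below from RefSeq (GRCm38.p6), with the seed in capitals; miR-23b is named only.

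miR-23a: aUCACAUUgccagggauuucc
miR-27a: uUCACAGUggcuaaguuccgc
miR-27b: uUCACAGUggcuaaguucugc
miR-24: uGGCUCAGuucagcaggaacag
miR-24-1*: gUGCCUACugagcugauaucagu
miR-24-2*: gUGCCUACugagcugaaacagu

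miR-27a and miR-27b share the seed UCACAGU and differ at 1 of 21 bases, C19U, with miR-27a given first and positions counted from the 5′ end. The passenger arms miR-24-1* and miR-24-2* share the seed UGCCUAC and differ only towards the 3′ end. RefSeq lists mature miR-24 at 2 genes, Mir24-1 and Mir24-2. The probe coordinates of the files (mm9) placed miR-23a at chr8:86732465-86732482, miR-27a at chr8:86732630-86732646 and miR-24-2* at chr8:86732743-86732759. They placed miR-23b at chr13:63401841-63401857, miR-27b at chr13:63402072-63402088, miR-24-1* at chr13:63402523-63402543 and miR-24 at chr13:63402563-63402580. The files thus gave miR-24 at the chromosome 13 cluster only, although its sequence also lies in the chromosome 8 cluster. The distances between 3′ ends equalled those of the RefSeq mature miRNAs in 6 of 6 pairs of members that RefSeq lists, so these arms are those named. In RefSeq the chromosome 13 cluster lies within the span of the gene Aopep, an aminopeptidase, and the chromosome 8 cluster lies between the coding genes Nanos3 and Zswim4 with no gene spanning it. Each member had 2 probes of 10 spots each. The probes of miR-27a and miR-27b began at base 5 or 6 and ran to the 3′ end, so they included position 19, and cross-hybridization between the paralogs was not tested.

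Before any normalization, the 5 members detected on all arrays were brighter on each Flut+Acy array than on Sham, and brightest on Flut+Acy+T. In such bulk samples fewer cells of a type and less RNA per cell cannot be told apart. The values that follow are total gene signals in scanner units with the scanner software's own error. miR-23a read 758 ± 62.3 (Sham), 1405 ± 115 and 1714 ± 139 (Flut+Acy) and 3062 ± 277 (Flut+Acy+T). Its paralog miR-23b read 755 ± 64.5 (Sham), 1159 ± 96.3 and 1332 ± 108 (Flut+Acy) and 2038 ± 207 (Flut+Acy+T). miR-23a thus read 4.04 times its Sham value on Flut+Acy+T, and miR-23b 2.70 times.

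miR-27a read 673 ± 56.0 (Sham), 1196 ± 98.5 and 1367 ± 112 (Flut+Acy) and 2570 ± 244 (Flut+Acy+T). Its paralog miR-27b read 136 ± 11.9 (Sham), 288 ± 25.2 and 316 ± 27.3 (Flut+Acy) and 653 ± 134 (Flut+Acy+T). miR-24, the product common to both clusters, read 1168 ± 85.3 (Sham), 1616 ± 118 and 1884 ± 137 (Flut+Acy) and 3237 ± 265 (Flut+Acy+T). Over Sham, miR-24 had the smallest ratio of the 5 on each Flut+Acy array, at 1.38 and 1.61 times, and miR-27b the largest, at 2.11 and 2.31 times. For each of the 5, both Flut+Acy values lay between Sham and Flut+Acy+T on this scale. The summed signal of the arrays rose in the same order. The median miRNA rose too, by 1.54 on the log2 scale from Sham to Flut+Acy (189 miRNAs detected on all arrays of both groups). It rose by 0.58 from Flut+Acy to Flut+Acy+T (83 miRNAs), so this order is not particular to the members. Signals of different probes are not levels of different miRNAs, so only changes are compared between members.

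The passenger arms were near or below the detection limit. miR-24-1*, made only at the chromosome 13 locus, read 7.91 ± 2.56 (Sham) and 11.7 ± 2.80 and 10.6 ± 3.98 (Flut+Acy) units, and was not detected on Flut+Acy+T. Its 3 detected values differed by about their errors. miR-24-2*, made only at the chromosome 8 locus, was detected on no array, with readings of 2.58, 3.70 and 5.60 units on Sham and the Flut+Acy arrays. On Flut+Acy+T the readings were below 0, at -125 ± 123 units for miR-24-1* and -184 ± 123 for miR-24-2*. The arms miR-27a* and miR-27b* were also detected on no array. The share of mature miR-24 that came from each locus therefore could not be read from the passenger arms.

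**Figure D1:**
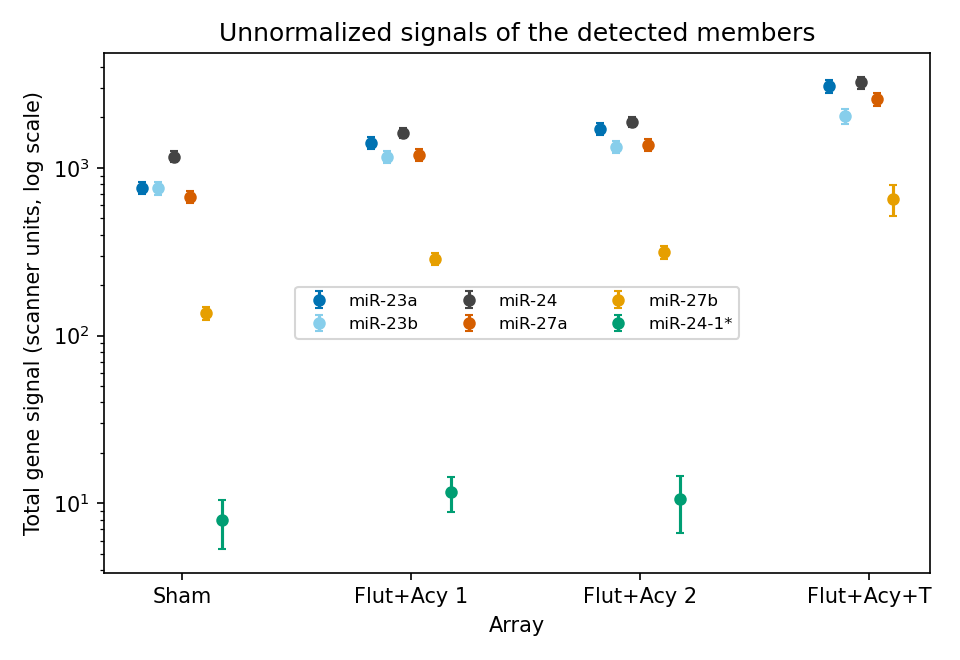
Total gene signal in scanner units (log axis) of the 6 members that were detected on at least 1 array, on each of the 4 arrays, with the scanner software's error as bars. The 5 members detected on all arrays read lowest on Sham and highest on Flut+Acy+T, and miR-24-1* is drawn on the 3 arrays where it was detected.

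The comparison of Flut+Acy with Sham asked which of these miRNAs differed after flutamide and acyline. The drugs were given together, so their effects cannot be told apart, and the paper reports a loss of germ cells in this group. After quantile normalization, which the study's methods name, the direction was the opposite of that of the unnormalized signals. Normalized signals of miR-23b were 1834 units on Sham and 1089 on each Flut+Acy array, a log2 difference of -0.75 (SE 0.0069, limma adjusted p = 0.0078). Those of miR-24 were 2537 on Sham and 1652 on each Flut+Acy array, a log2 difference of -0.62 (SE 0.0069, limma adjusted p = 0.0086). miR-27b read 542 on Sham and 304 and 298 on Flut+Acy, a log2 difference of -0.85 (SE 0.025, limma adjusted p = 0.0176). These 3 passed the threshold of an adjusted p of 0.05, all in the direction of lower signal in Flut+Acy.

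The other members did not pass it. miR-23a read 1879 units on Sham and 1313 and 1483 on Flut+Acy (log2 difference -0.43, SE 0.13, limma adjusted p = 0.151). miR-27a read 1751 on Sham and 1105 and 1194 on Flut+Acy (-0.61, SE 0.080, limma adjusted p = 0.0643). miR-24-1* read 61.6 on Sham and 21.0 and 12.4 on Flut+Acy (-1.93, SE 0.55, limma adjusted p = 0.150). It was the 1 member lower by 2-fold or more, as were 16.6% of the 283 miRNAs detected in either group, and its unnormalized signals went the other way. Its log2 difference was -0.86 at the 75th percentile of the miRNAs detected on all arrays and -0.32 with normexp, both under 2-fold.

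The 3 of 6 tested members called lower stand against 28.5% of all 298 miRNAs tested, and another 25.5% of all were called higher. The members' median log2 difference was -0.69, and that of the 283 miRNAs detected in either group was -0.18. The SE of miR-23b and miR-24 reflected a tie, since quantile normalization gave each of them an identical value on Flut+Acy replicates 1 and 2, as it did for 55 of the 298 tested miRNAs. Of those 55, 70.9% passed the threshold, against 50.2% of the other 243. A single-factor analysis of variance with Tukey's test, the test the methods name, was run on the same values and gave no p for miR-23b and miR-24, which had no spread, and an adjusted p of 0.183 for miR-27b. With arrays scaled to the 75th percentile of the miRNAs detected on all arrays, miR-23b and miR-24 stayed past limma's threshold (adjusted p = 0.0396 and 0.0356), while miR-27b lay at -0.21 and did not pass (adjusted p = 0.121).

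The direction of all 6 depended on how the arrays were brought to a common scale. With no normalization the log2 differences were 1.03 for miR-23a, 0.72 for miR-23b, 0.58 for miR-24, 0.93 for miR-27a, 1.14 for miR-27b and 0.49 for miR-24-1*. The median miRNA of the 189 detected on all arrays of both groups moved by 1.54 on that scale and by -0.37 after quantile normalization. Relative to that median miRNA, the 5 members detected on all arrays were lower in Flut+Acy under each of the 7 sets of values computed, the authors' own table included. The percentile scalings change each array by a constant factor, so among the 7 they only repeat the unnormalized distances. In the authors' table miR-24 read 21.3 on Sham, against 1168 units in the scanner data. miR-24 stood 0.96 below the median on the unnormalized log2 scale, with 164 of the 189 miRNAs above it. miR-27b stood nearest to it, with 123 above, and miR-23a had 127 above. After quantile normalization 102 of the 189 were above miR-23a and 138 above miR-27b, so the order of the members changed with the scale while their side of the median did not. This is a description of the members' place among all miRNAs, with no test.

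**Figure D2:**
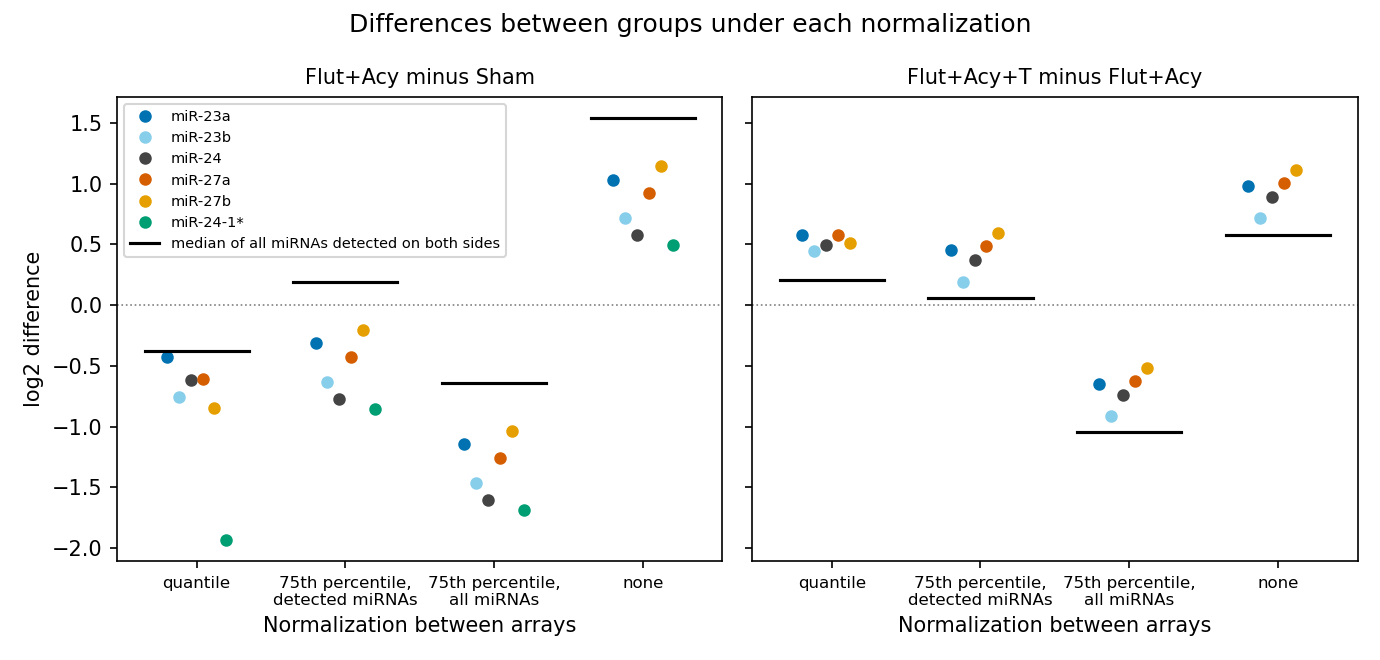
log2 difference of each member between groups (left, Flut+Acy minus Sham; right, Flut+Acy+T minus Flut+Acy) under 4 normalizations between arrays. Points are members and black lines the median of all miRNAs detected on both sides (189 on the left, 83 on the right); points cross 0 with the normalization but stay below the line on the left and above it on the right. The percentile scalings change each array by a constant factor, so their distances to the line equal those with no normalization.

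The comparison of Flut+Acy+T with Flut+Acy asked whether testosterone moved the same miRNAs. After quantile normalization the 5 members detected on all arrays were higher on Flut+Acy+T, by log2 differences from 0.45 to 0.58 with a median of 0.51. miR-24 read 2332 units against 1652 on each Flut+Acy array (log2 difference 0.50, limma adjusted p = 0.0058). miR-23b read 1483 against 1089 on each (0.45, limma adjusted p = 0.0060), and miR-27b 430 against 304 and 298 (0.51, limma adjusted p = 0.0154). miR-27a, at 1716 units, and miR-23a, at 2087, lay 0.58 above Flut+Acy on the log2 scale without passing the threshold (limma adjusted p = 0.0534 and 0.0908). At the 75th percentile of the miRNAs detected on all arrays, miR-23b (0.19, limma adjusted p = 0.158) and miR-24 (0.37, adjusted p = 0.0681) did not pass, and miR-27a did (0.48, adjusted p = 0.0342). On that scale miR-24-1* was called lower (limma adjusted p = 0.0212), with its value on Flut+Acy+T, where it was not detected, set to the floor. After quantile normalization none of the 5 reached 2-fold, which 17.5% of the 297 miRNAs detected in either group did.

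The 3 of 6 members called higher stand against 21.5% of the 298 miRNAs tested, while 53.7% of all were called lower. Of the 160 called lower, 136 were not detected on the Flut+Acy+T array. miR-24-1* was among the undetected there, and since the lowest detected normalized signal on that array was 104 units, above its signals on the other arrays, no fold is given. Over 6 members the median was 0.51 with miR-24-1* at the floor, and over the 297 miRNAs detected in either group it was -1.11. Over the 83 detected on all arrays of both groups, which had to be bright enough for the Flut+Acy+T array, the median was 0.20, and the 5 members lay 0.24 to 0.38 above it. They also lay above it without normalization, by 0.13 to 0.53. With each array scaled to the 75th percentile of all its miRNAs, the 5 were lower on Flut+Acy+T, by -0.51 to -0.92, and still above the median miRNA. A constant factor per array leaves the distance to the median unchanged, so this place repeats the unnormalized result. In the table the authors deposited, 3 of the 5 lay below the median. The Flut+Acy arrays enter both comparisons, so the lower values in the first and the higher values in the second are not independent.

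Against Sham, the differences on Flut+Acy+T were smaller for the 5 members detected on all arrays, and miR-24-1* again had no fold. miR-23a lay 0.15 above Sham on the quantile-normalized log2 scale (limma adjusted p = 0.515) and miR-27a -0.029 from it (adjusted p = 0.901). miR-24 lay at -0.12 (limma adjusted p = 0.0265), miR-23b at -0.31 (adjusted p = 0.0115) and miR-27b at -0.33 (adjusted p = 0.0361), and these 3 were called lower. Of all 298 miRNAs, 48.3% were called lower in this comparison and 17.4% higher. Each of these groups had 1 array, so the test took its spread from the Flut+Acy pair. Averaging the processed spot signals in place of the gene totals left 0 of the 6 past limma's threshold, with 1 at an unadjusted p under 0.05, and with normexp background correction these 3 calls were also lost. The direction again depended on the scaling. With no normalization the same 3 were called higher than Sham, by 1.47 for miR-24, 1.43 for miR-23b and 2.26 for miR-27b on the log2 scale (limma adjusted p = 0.0179, 0.0179 and 0.0073). With each array scaled to the 75th percentile of the miRNAs detected on all arrays the 3 calls were lost, at -0.40, -0.44 and 0.38.

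The paralogs were compared within each array, where any factor common to the array drops out of the unnormalized signals. An amount added to or taken from all signals of an array would not drop out, and its effect was not tested. The log2 signal of miR-23a minus that of miR-23b was 0.0046 ± 0.17 (Sham), with the scanner error propagated, 0.28 ± 0.17 and 0.36 ± 0.17 (Flut+Acy) and 0.59 ± 0.20 (Flut+Acy+T). miR-23a of the chromosome 8 cluster therefore had a larger difference to miR-23b of the chromosome 13 cluster on each treated array than on Sham. The change from Sham to Flut+Acy was 0.32 ± 0.21, a ratio of 1.24 and 1.52 times its scanner error, against a single Sham array. The gap between the Flut+Acy arrays was 0.087 for this pair, and over 11 other paralog pairs such gaps had a median of 0.12 and reached 0.34. From Sham to Flut+Acy+T it was 0.58 ± 0.26, or 2.24 times its scanner error. From Flut+Acy to Flut+Acy+T the change was 0.27 ± 0.23. After quantile normalization the changes kept their direction, at 0.32 from Sham to Flut+Acy and 0.14 from Flut+Acy to Flut+Acy+T, and the second was smaller than the gap of 0.18 between the Flut+Acy arrays on that scale.

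The miR-27 pair did not keep a direction. On unnormalized signals, the log2 signal of miR-27a minus that of miR-27b was 2.30 ± 0.17 (Sham), 2.06 ± 0.17 and 2.11 ± 0.17 (Flut+Acy) and 1.98 ± 0.33 (Flut+Acy+T). The change from Sham to Flut+Acy was -0.22 ± 0.21, about the size of its error and with miR-27b gaining on miR-27a. After quantile normalization the same difference was 1.69 (Sham), 1.86 and 2.00 (Flut+Acy) and 2.00 (Flut+Acy+T), a change of 0.24 in the opposite direction. Quantile normalization moves bright and dim miRNAs of an array by different factors, so it does not keep a ratio within an array.

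**Figure D3:**
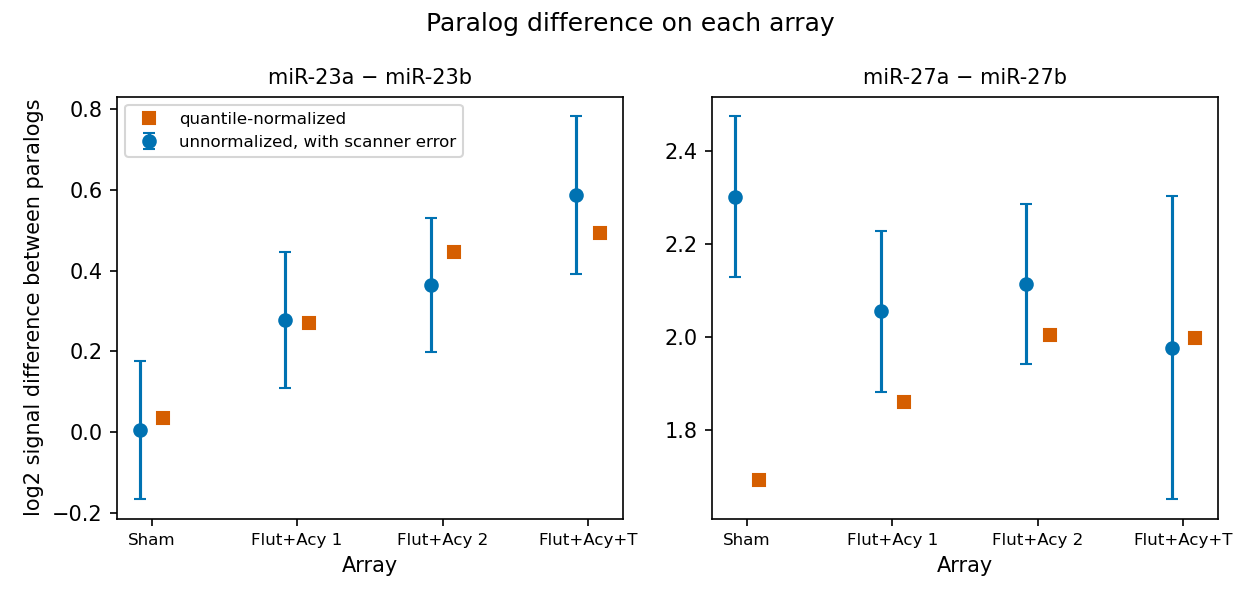
log2 signal of miR-23a minus miR-23b (left) and of miR-27a minus miR-27b (right) on each of the 4 arrays, on separate vertical scales that do not start at 0. Circles are unnormalized signals with the propagated scanner error and squares are quantile-normalized values; miR-23a gains on miR-23b in both, while the miR-27 pair falls in the first and rises in the second.

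The probes of each member, which cover 16 to 18 bases from the 3′ end for these 5 miRNAs, gave a second view of the same arrays. The brighter and the dimmer probe of miR-23a read 1.85 times Sham each on Flut+Acy replicate 1, and 2.26 and 2.28 times on replicate 2. Those of miR-23b read 1.52 and 1.61 times on replicate 1, and 1.70 and 2.03 times on replicate 2. All 4 pairings of a miR-23a probe with a miR-23b probe gave a change above 0 from Sham to Flut+Acy, from 0.18 to 0.36 on the log2 scale, and from Sham to Flut+Acy+T, from 0.45 to 0.64. The pairings share probes, and a gene total is the sum of its probes. They are therefore not independent of each other or of the change in gene totals.

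For the miR-27 pair the probes of the paralogs overlapped. On Flut+Acy replicate 1 the brighter probe of miR-27b read 2.17 times Sham and its dimmer probe 1.86 times, and the probes of miR-27a read 1.75 and 1.87 times. On replicate 2 those of miR-27b read 2.39 and 1.96 times and those of miR-27a 2.01 and 2.12 times. The probes of miR-23b differed from each other on replicate 2 by a similar ratio. Of the 4 pairings of the miR-27 probes, 1 gave a change above 0 from Sham to Flut+Acy and 3 gave one below 0, within a range of -0.28 to 0.063. On Flut+Acy+T the dimmer miR-27b probe had 0 of 10 spots well above background. The ratio of miR-27b on that array, 4.51 times Sham by the brighter probe and 5.99 times by the dimmer, was thus measured well by 1 probe only. For miR-24 the probes read 1.43 and 1.32 times Sham on Flut+Acy replicate 1 and 1.68 and 1.52 times on replicate 2.

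**Figure D4:**
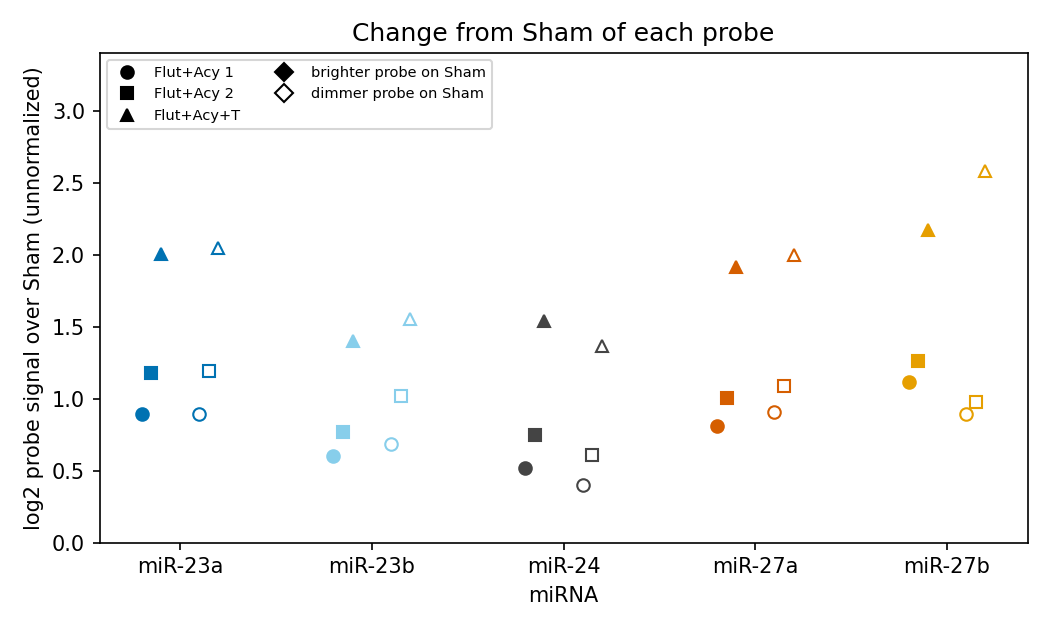
Unnormalized probe signal over Sham (log2) of the brighter probe (filled) and the dimmer probe (open) of each member detected on all arrays, on the Flut+Acy arrays (circles and squares) and on Flut+Acy+T (triangles). On each array both miR-23a probes lie above both miR-23b probes, while the probes of miR-27a lie between or near those of miR-27b on the Flut+Acy arrays.

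Other paralog pairs changed by as much. Of 15 further pairs on the arrays, 11 were detected on Sham and on both Flut+Acy arrays, and the size of the change of their unnormalized log2 difference from Sham to Flut+Acy ran from 0.076 to 1.29 with a median of 0.39. Of the 11, 6 changed by more than the miR-23 pair and 9 by more than the miR-27 pair. The largest change was that of miR-15a against miR-15b, at -1.29. From Sham to Flut+Acy+T, 7 pairs could be read, with a median size of 0.31, and only miR-10a against miR-10b, at 2.04, changed by more than the miR-23 pair.

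Among the 71 other miRNAs detected on all arrays, the 5 whose quantile-normalized differences from Sham on the 3 treated arrays lay nearest to the members' mean were let-7e, miR-10b, miR-143, let-7c and miR-199a-5p. The measure was the Euclidean distance over these 3 log2 differences, and the members' mean was -0.68 and -0.63 (Flut+Acy) and -0.13 (Flut+Acy+T). let-7e, at a distance of 0.041, had differences of -0.66, -0.59 and -0.14. It lay nearer to the mean than any member, the nearest of which was miR-24 at 0.058. miR-23a lay farthest, at 0.43, and 8 of the 71 lay nearer than it did.

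Lists of miRNAs linked to other cells, and a list for gonadal somatic cells, moved between these arrays as well. The germ cell list (miR-34b-5p, miR-34c, miR-449a and miR-449b, 3 of 4 detected on Sham) summed to 1659 normalized units (Sham), 6995 and 5845 (Flut+Acy) and 2158 (Flut+Acy+T), opposite in direction to the normalized values of the members. The paper reports miR-34b-5p, miR-34c and miR-449a as androgen-responsive miRNAs of Sertoli cells, and their cell of origin was not tested here. The muscle and peritubular list (miR-143, miR-145, miR-1, miR-133a and miR-133b, 5 of 5 detected on Sham and Flut+Acy) summed to 5142 (Sham), 2717 and 2860 (Flut+Acy) and 3180 (Flut+Acy+T), of which miR-143, also among the 5 miRNAs most like the members, held 3106, 1879, 2000 and 2594. The other 4 of the list summed to 2036 (Sham), 838 and 860 (Flut+Acy) and 586 (Flut+Acy+T), so that without miR-143 the list was lowest on Flut+Acy+T, where 2 of these 4 were detected. The endothelial list (miR-126-3p and miR-126-5p, both detected on Sham) summed to 1647 (Sham), 2062 and 1938 (Flut+Acy) and 3279 (Flut+Acy+T). Most of this was miR-126-3p, at 1552, 2000, 1879 and 3279. miR-126-5p went the other way, at 94.8 (Sham) and 61.6 and 59.2 (Flut+Acy), and was not detected on Flut+Acy+T. The erythroid list (miR-451, miR-144 and miR-486, 1 of 3 detected on Sham) and the leukocyte list (miR-142-3p, miR-142-5p, miR-223 and miR-150, 2 of 4) summed to 420 and 652 on Sham and to at most 179 and 353 on the other arrays, with none of their miRNAs detected on Flut+Acy+T. The list of gonadal somatic cells, which include Sertoli cells, held miR-202-3p and miR-202-5p. It summed to 404 on Sham and 361 and 344 on Flut+Acy, and neither miRNA was detected on Flut+Acy+T. miR-202-3p read 404 on Sham and 321 and 304 on Flut+Acy, while miR-202-5p was not detected on Sham and read 39.9 and 39.6. The part of these cells in the differences of the members was not tested.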

How the data were processed

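Scanner files of 4 single-colour miRNA arrays of 1 slide were used; their header names mm9. The authors deposited background-subtracted spot and gene intensity values in scanner units from Agilent's Feature Extraction software (2 probes of 10 spots per member) with a detection call per miRNA. They also deposited a table of normalized intensity values whose scale and centring are not given in the sources used here. Per the methods, the authors normalized quantiles. Here the total gene signals of 567 mouse miRNAs were quantile-normalized over the 4 arrays and given a floor of 5.46 units (each array's lowest detected value after normalization, median of the 4), and log2 was taken. limma 3.58.1 (R 4.3.3) was fitted to the 3 group means for the 298 miRNAs that any array detected, and p-values were adjusted by Benjamini-Hochberg (threshold 0.05). The fit had 1 residual degree of freedom and prior degrees of freedom of 0.46, with a prior SD of 0.010. It was also run on simulated data without ties, which does not check its p-values on these data, where ties occurred. Depth does not apply to arrays, and their number limits the precision. Members, lists and tests were chosen with earlier results of these data known. The text names all members, the other arms of their hairpins, the 5 most alike miRNAs, 15 further paralog pairs (values for the extremes) and lists for cell types. RefSeq tables gave sequences and neighbouring genes. Paralog differences carried the scanner error of both genes. In all, 13 alternatives were tried, and 4 probe pairings for each of 2 paralog pairs were added after seeing the data. Tukey's test used SciPy 1.17.1.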

Additional observations from a re-analysis of the deposited data

How the results depend on the processing

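Results in each sentence are log2 values in the order Flut+Acy minus Sham, Flut+Acy+T minus Flut+Acy, Flut+Acy+T minus Sham. The members' medians, -0.69, 0.51 and -0.21 as reported, became -0.53, 0.41 and -0.17 with arrays scaled to the 75th percentile of miRNAs detected on all arrays, -1.36, -0.69 and -2.11 with that of all mouse miRNAs, 0.82, 0.94 and 1.70 with no normalization, -0.73, 0.57 and -0.063 with processed spot signals, and -1.03, -0.50 and -1.84 in the authors' table. With normexp the first was -0.58 and the last -0.050. Members past the threshold, 3 in each comparison as reported, numbered 6, 5 and 6 at the 75th percentile of all miRNAs and 0 in each with the methods' analysis of variance and Tukey's test. They numbered 1 in the last comparison at the 75th percentile of detected miRNAs, 5 and 6 in the last 2 comparisons with no normalization, 5 and 0 with processed spot signals, and 5 and 1 with normexp, and 1 in the first in the authors' table. These counts were not of the same members. In the last comparison the 1 was miR-24-1*, called lower, at the 75th percentile of detected miRNAs (limma adjusted p = 0.0204) and with normexp (0.0448). In the first comparison 2 passed at the 75th percentile of detected miRNAs, without miR-27b, and the 3 with no normalization (miR-23a, miR-27a and miR-27b) were called higher. In Flut+Acy+T minus Flut+Acy, the 5 at the 75th percentile of all miRNAs were called lower, while the 3 as reported were called higher. Those called in the authors' table in that comparison, miR-24 and miR-27b, were also called lower. At an unadjusted p of 0.05, Tukey's test called 1, 0 and 0 of the 4 members that had a spread.

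Single members turned direction as follows. At the 75th percentile of detected miRNAs, miR-27a and miR-27b lay 0.059 and 0.38 above Sham on Flut+Acy+T. At that of all miRNAs, Flut+Acy+T minus Flut+Acy was -0.65 for miR-23a, -0.92 for miR-23b, -0.74 for miR-24, -0.62 for miR-27a and -0.51 for miR-27b, and miR-23a lay at -1.79 against Sham. With no normalization, Flut+Acy minus Sham was 1.03 for miR-23a, 0.72 for miR-23b, 0.58 for miR-24, 0.49 for miR-24-1*, 0.93 for miR-27a and 1.14 for miR-27b, and Flut+Acy+T minus Sham was 1.43 for miR-23b, 1.47 for miR-24, 1.93 for miR-27a and 2.26 for miR-27b. In the authors' table, Flut+Acy+T minus Flut+Acy was -3.04 for miR-24, -0.30 for miR-27a and -0.70 for miR-27b, and miR-23a lay at -0.20 against Sham.

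The miR-23a minus miR-23b change, 0.32 from Sham to Flut+Acy and 0.14 on to Flut+Acy+T as reported, was above 0 in every alternative run. The second was 0.27 at either percentile and with no normalization, and the first was 0.19 with normexp, 0.16 in the authors' table and 0.19 and 0.18 in 2 of the added probe pairings. A percentile scaling cannot alter a difference within an array, so it repeats the value with no normalization. The miR-27a minus miR-27b changes, 0.24 and 0.066 as reported, were -0.22 and -0.11 at either percentile and with no normalization. The second was -0.16 with processed spot signals and -0.016 with normexp, and the first 0.12 with normexp. They were 1.55 and 0.41 in the authors' table, and the first was 0.48 without the Flut+Acy+T array. By probe the first was -0.19, 0.063, -0.28 and -0.026.

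Leaving out either Flut+Acy array gave values with no test. The members' medians then ranged from -0.76 to -0.69, from 0.49 to 0.49 and from -0.23 to -0.19. The miR-23 pair ranged from 0.25 to 0.40 and from 0.081 to 0.24, and the miR-27 pair from 0.085 to 0.21 and from 0.071 to 0.23; without replicate 2 the miR-27 values were 0.085 and 0.23.

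The cause of these differences was not tested. A floor of 1 unit, a stricter detection filter and no filter moved none of these medians or paralog changes. Calls moved from 3 to 4 in Flut+Acy+T minus Flut+Acy with the stricter filter and with none, where miR-27a passed (adjusted p = 0.0461 and 0.0375), and in Flut+Acy+T minus Sham with the floor of 1 unit, where miR-24-1* did (0.0436). The authors' table needed a floor of 1 unit, since detected miRNAs lie below 0 there; its value for miR-24 was 21.3 on Sham, against 1168 units in the scanner file and 19.2 for miR-24-1* in the same table. No paired analysis was possible because only the Flut+Acy samples carry replicate numbers. miRNAs under 238 units could not be read on the Flut+Acy+T array.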
